A study of Mus musculus with 6 samples.

Results

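The Egr, Nr4a and Ier immediate early genes, with the transcription factor gene Srf that drives many of them, were followed in DR4 mouse embryonic fibroblasts. The 10 genes were chosen by name (Egr1, Egr2, Egr3, Nr4a1, Nr4a2, Nr4a3, Ier2, Ier3, Ier5 and Srf), and every probe set with 1 of these symbols was taken. They made 22 of 45137 probe sets and 10 of 18193 named genes, with 16 probe sets for all 10 genes on the MOE430A array and 6 probe sets for Egr3, Nr4a2 and Nr4a3 on MOE430B. They were chosen by name and not by a threshold on a measured value.

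DR4 fibroblasts come from a mouse strain made resistant to several selection drugs and serve as feeder cells under embryonic stem cells. Per the labels they were fibroblasts of day 15 embryos, kept on 0.1% gelatin at 37 C and 5% CO2 in D-MEM with 15% serum and LIF, and they are the only cells in the series. RNA of 3 replicates was hybridized to both array types, the Affymetrix MOE430A and MOE430B, giving 6 arrays. A probe set is a group of short oligonucleotides that together measure a transcript. The labels record 12x10e6 cells and an RNA concentration of 2.4 ug/ul for replicate 1, and 3x10e6 cells and 3.0 ug/ul for each of replicates 2 and 3. The labels say nothing of passage, of time since the last change of medium, of treatment to stop division or of whether the replicates were separate cultures. The p-values below therefore cover the variation among these samples alone, and that variation may be technical.

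Immediate early genes are transcribed within minutes of a signal such as serum, growth factors or stress, without new protein synthesis, and their RNAs are short-lived. Srf encodes serum response factor, which binds CArG boxes together with ternary complex factors switched on by ERK kinases, or with the actin-sensing Mrtf cofactors. Egr genes encode zinc finger factors, Nr4a genes encode orphan nuclear receptors that need no known ligand, and Ier genes encode small regulators. In fibroblasts the group is known for its brief surge when resting cells are given serum.

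Promoters of 7 of the 10 genes were searched for the letters that such factors are known to bind. RefSeq promoters (GRCm38.p6) were used, from 250 bases before to 50 after a start. The 7 genes were Egr2, Nr4a1, Nr4a2, Nr4a3, Ier3, Ier5 and Srf. Promoters of Egr1, Egr3 and Ier2 were not searched, so the motif results say nothing of these genes. CArG boxes, searched on both strands, were found for Egr2 and Srf and occur in 1.63% of all 32851 promoters in the table. The CREB core motif TGACG was found for Egr2, Nr4a1, Nr4a2, Nr4a3 and Srf and occurs in 20.8% of all promoters, and the Egr site GCGNGGGCG was found for Nr4a1, Nr4a2 and Srf and occurs in 5.55%. The full CREB site TGACGTCA and the Nr4a site AAAGGTCA were in none of the 7 genes' windows, against 1.79% and 1.51% of all promoters. The following 30-base windows, written 5′ to 3′ on the gene's strand, show in capitals every match of a searched motif that lies whole in the window. A match is a run of letters and says nothing of binding in these cells.
Srf, chr17:46556215-46556244, minus strand, with a pair of CArG boxes: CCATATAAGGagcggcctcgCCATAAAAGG
Egr2, chr10:67537787-67537816, plus strand, CArG box: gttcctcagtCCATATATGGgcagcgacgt
Egr2, chr10:67537484-67537513, plus strand, CArG box before another start: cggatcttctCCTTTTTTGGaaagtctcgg
Nr4a1, chr15:101266776-101266805, plus strand, CREB core motif and Egr site, both read on the other strand: gCGTCAgtggCGCCCCCGCccctctccatg
Nr4a2, chr2:57124103-57124132, minus strand, a pair of CREB core motifs: ccgggcTGACGgggccgcTGACGcgcttgg
Nr4a3, chr4:48045084-48045113, plus strand, CREB core motifs on both strands: tcccatgtCGTCAcatTGACGtctcgcatt

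The CArG pair of Srf lay at positions -82 to -53 from the start, and the Egr site of that promoter at -101 to -93. Srf is known to act on its own gene in serum-treated fibroblasts.

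The first question was which of these genes feeder cells show, and at what level. A probe set was called above the floor where its MAS5 signal, a background-corrected intensity on a linear scale, exceeded the median of its own array on every array. For replicates 1, 2 and 3 the MOE430A medians were 689, 685 and 734, and the MOE430B medians were 849, 917 and 907. A median leaves 50% of probe sets below it by construction. Egr1, Nr4a1, Ier2, Ier3, Ier5 and Srf were above it on MOE430A, and Egr2, Egr3, Nr4a2 and Nr4a3 were not. That is 6 of 10 genes (60%), against 50.01% of the 12393 named genes on that array. On MOE430B 1 of 3 genes, Nr4a2, was above the floor, against 50.8% of 9607. The 75th percentile of the array as the floor left 3 of the 10, Egr1, Ier3 and Ier5, and a fixed signal of 200 passed all 10. In RNA from a culture, fewer cells that express a gene and less of its RNA per cell cannot be told apart.

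**Figure D1:**
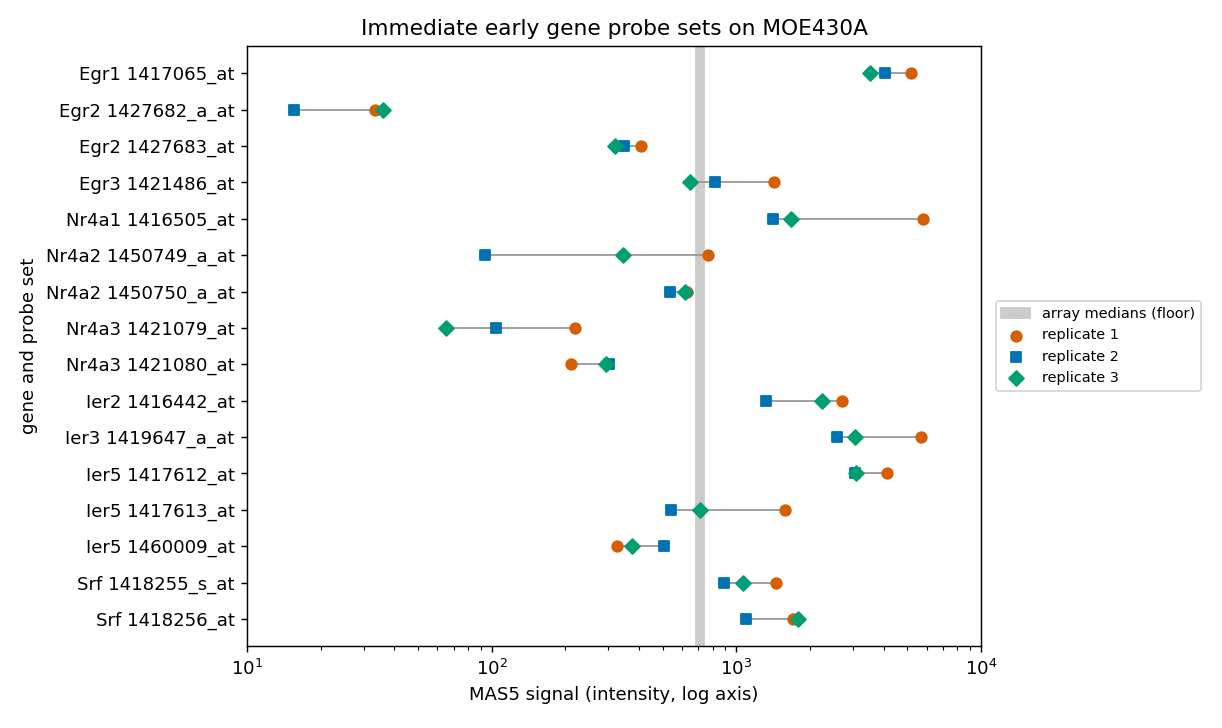
MAS5 signal (log axis) of the 16 MOE430A probe sets of the 10 genes, 1 point per replicate, with a grey band over the array medians of 685 to 734. Replicate 1 is the rightmost point of 12 of the 16 probe sets, and Nr4a1 has the widest gap among probe sets above the band, with 5782 against 1409 and 1671.

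Among the Egr factors, Egr1 had a signal of 5185 in replicate 1, 4068 in replicate 2 and 3513 in replicate 3 (4255 ± 852, SD, n = 3). All 3 arrays lay well above the floor, with replicate 1 the highest. Egr3, a close relative that Egr1-inducing signals also switch on, had 1422, 819 and 644, so replicate 3 alone was under the floor. Its MOE430B probe set had 571, 144 and 705, under the floor on every array, so that no order of the replicates can be read from it. Egr2, best known for its role in hindbrain and Schwann cell development, lay under the floor on all arrays. One Egr2 probe set had 407, 348 and 320 and the other had 33.3, 15.5 and 36.1.

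The Nr4a receptors differed in which arrays showed them. Nr4a1, the receptor also named Nur77, had 5782 in replicate 1 and 1409 and 1671 in replicates 2 and 3 (2954 ± 2452, SD, n = 3). It was above the floor on all 3 MOE430A arrays, and replicate 1 stood alone. Its SD of log2 signal was 1.11, and 0.313% of the 9600 MOE430A probe sets that cleared the floor on every array had a larger one.

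Nr4a2, or Nurr1, known for dopamine neurons and induced by cyclic AMP in many cells, had 6 probe sets of unlike brightness. On MOE430A they gave 764, 94.1 and 344, and 630, 538 and 614, so that 1 of these 6 values was above the floor. On MOE430B the probe set 1447863_s_at gave 4079, 2452 and 3464, above the floor on all 3 arrays. The suffix _s_at marks probes that can match several transcripts. The next, 1455034_at, gave 1473, 204 and 599 and was above the floor in replicate 1 alone. The remaining pair, both assigned by the platform annotation to Nr4a2 through the same accession, gave 1686, 3189 and 355 for 1433422_at, above the floor in replicates 1 and 2 and highest in replicate 2, and 137, 697 and 388 for 1433423_at, under the floor on all arrays. Whether all 6 probe sets detect Nr4a2 was not checked against probe sequences. Nr4a3, or Nor1, was under the floor on all arrays by each of its 3 probe sets, with signals of 64.8 to 303 on MOE430A and 367 to 668 on MOE430B.

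**Figure D2:**
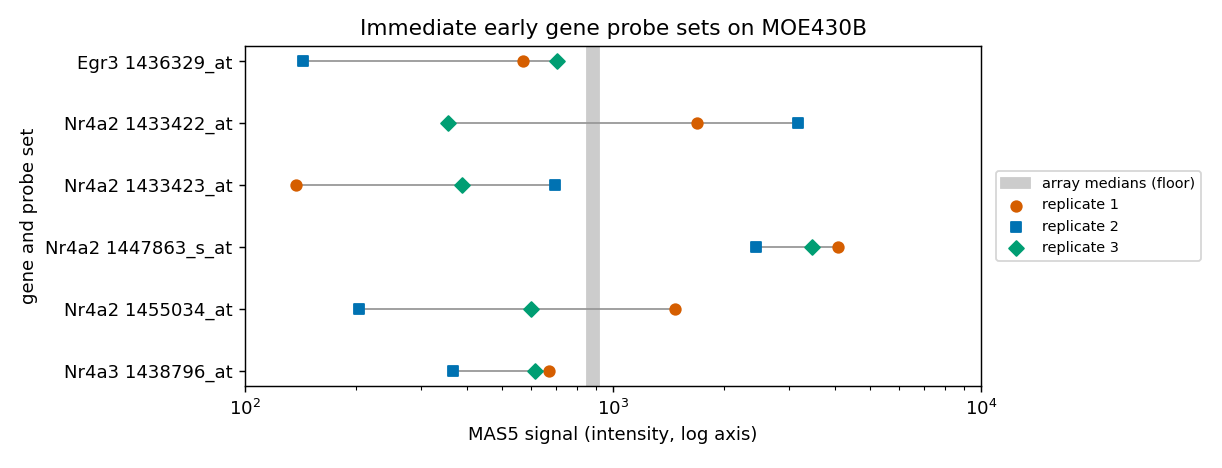
MAS5 signal (log axis) of the 6 MOE430B probe sets of Egr3, Nr4a2 and Nr4a3, 1 point per replicate, with a grey band over the array medians of 849 to 917. The Nr4a2 probe set 1447863_s_at lies above the band on all arrays (2452 to 4079), while the other 3 Nr4a2 probe sets cross it or lie below it.

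Each Ier gene had a probe set above the floor on all arrays. Ier3, also named IEX-1 and known to modulate ERK signalling and cell survival, had 5656, 2581 and 3061 (3766 ± 1654, SD, n = 3). Replicate 1 was the highest here as well, with replicates 2 and 3 close together. Ier2, a nuclear regulator also named Pip92, had 2712, 1325 and 2235, with replicate 2 the lowest. Ier5, which takes part in the heat shock response in human cells, had 3 probe sets. The brightest gave 4134, 3057 and 3096 and was above the floor on all arrays. Another, 1417613_at, gave 1582, 543 and 713, above the floor in replicate 1 alone, and 1460009_at gave 324, 507 and 375, under it on all arrays. Srf itself had 1446, 890 and 1064 on 1 probe set and 1701, 1097 and 1779 on the other. It was above the floor on all arrays by both, and replicate 2 was the lowest in each case.

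Replicate 1 was then set against replicates 2 and 3, because the labels record another cell number and RNA concentration for it. Nr4a1 was higher in replicate 1, 3.75-fold over the mean of the other arrays, with a difference of 1.90 ± 0.37 on the log2(signal + 16) scale (SE, 1 array against 2) and an adjusted p of 0.00817 in limma, a linear model fitted over all probe sets of the array type, against a threshold of 0.05. It ranked 27 of 11066 by p, and it alone passed among the 9 MOE430A probe sets of these genes in the test. On the same test 0.705% of all probe sets tested were called (78 of 11066), and 0.217% were called higher in replicate 1 (24). The call was lost under 2 other settings: with no filter on low values the adjusted p of Nr4a1 was 0.73, and after quantile normalization 0.284, both with a difference of 1.90. With 1 array against 2, nothing measures the spread of replicate 1 itself.

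The other 8 MOE430A probe sets of the group in the test did not pass, and are given as values. Ier5 by 1417613_at had a difference of 1.32 ± 0.37 (SE) with an adjusted p of 0.116 in limma, and at least 2.23-fold in signal with the floor in place of its dim arrays. Replicates 2 and 3 of that probe set were under the floor, so it entered the test through replicate 1 alone. Ier3 had 1.00 ± 0.37 (adjusted p = 0.325) and a signal ratio of 2.00. Egr3 had 0.95 ± 0.37 (adjusted p = 0.373) and a ratio of at least 1.83. Ier2 had 0.65 ± 0.39, Srf 0.56 ± 0.37 and 0.28 ± 0.38, Egr1 0.45 ± 0.37 and the brightest Ier5 probe set 0.42 ± 0.37, with adjusted p from 0.738 to 0.953. Egr1, the most studied gene of the group, thus had 1.37 times the signal in replicate 1, a difference that did not pass the test. A p that misses the threshold does not show that these levels were alike.

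**Figure D3:**
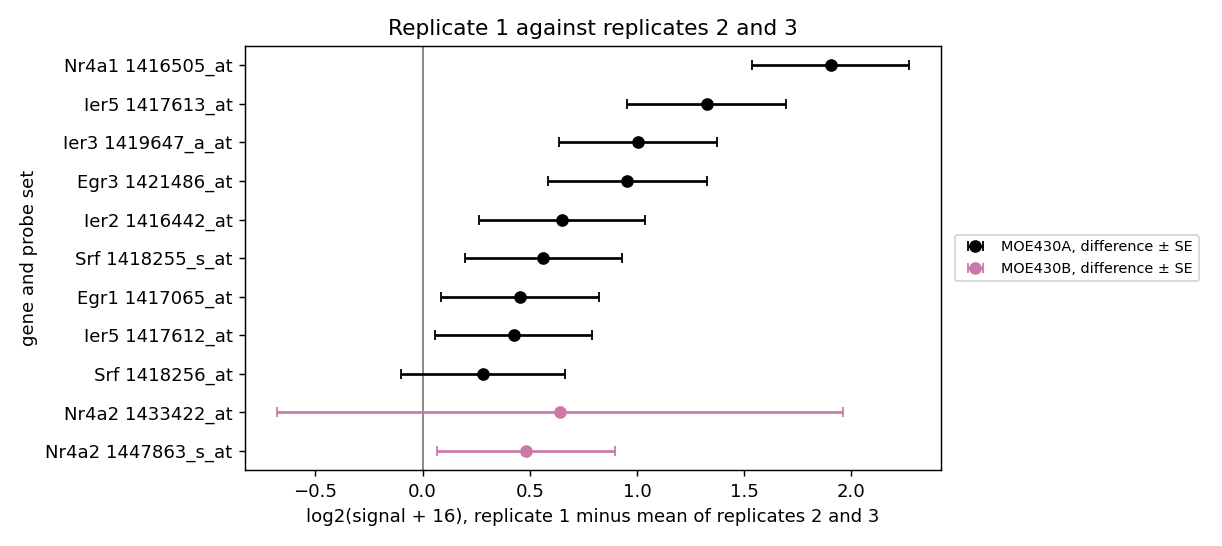
Difference in log2(signal + 16) between replicate 1 and the mean of replicates 2 and 3 for the 11 probe sets of the group in the test, with limma's SE as bars. Nr4a1 lies farthest from 0 at 1.90 ± 0.37, and the MOE430B probe set 1433422_at of Nr4a2 has the widest bar at 0.64 ± 1.32.

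The remaining 7 MOE430A probe sets, both of Egr2, both of Nr4a2, both of Nr4a3 and 1460009_at of Ier5, were too dim to enter the test. Counted over all 16, filtered or not, replicate 1 was above both other arrays in 12, where 32.3% of all 22626 MOE430A probe sets had replicate 1 highest. The median difference of the 16 was 0.51 on the log2 scale, against -0.01 for all probe sets. The 16 probe sets share 10 genes and the same 3 arrays, so they are not independent, and no test was made of this count. It includes probe sets under the floor, whose order cannot be read as an order of levels. On MOE430B replicate 1 was highest in 3 of 6, against 33.1% of 22511, and limma called 0% of the 10594 probe sets tested, with 767 at an unadjusted p below 0.05 and 0 calls also with an eBayes trend. The Nr4a2 probe sets in that test had differences of 0.48 ± 0.41 (adjusted p = 0.858) and 0.64 ± 1.32 (adjusted p = 0.943).

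Leaving out replicate 2 or replicate 3 moved Nr4a1 little. Its difference was 1.78 without replicate 2 and 2.02 without replicate 3, the latter being also the value within 1 scan day. On MOE430A, replicates 1 and 2 were scanned on the same day after the same fluidics station, and replicate 3 on another day after another station. The difference of Ier2 was 0.28 without replicate 2 and 1.02 without replicate 3, so its size depended on the array left on the other side. One Srf probe set changed sign, with -0.06 without replicate 2 and 0.63 without replicate 3. The Nr4a2 probe set 1433422_at did so too, with 2.20 without replicate 2 and -0.91 without replicate 3. On MOE430B all arrays shared a day and replicate 1 had a station of its own, so the effects of station and replicate cannot be told apart.

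The neighbours of the group in the pathway were read from lists. A list gene was counted as above the floor by a probe set of either array type, whereas the 10 genes were counted per type. The shares of all named genes given per type therefore do not apply to the list counts. By the list rule Nr4a2 would join the 6 genes above the floor on MOE430A. The Egr co-repressor genes Nab1 (2843 ± 665, SD, n = 3) and Nab2 (3340 ± 299) were above the floor, and Egr4 (365 ± 252) was not. Of the Srf cofactors and ternary complex factors 6 of 7 were above it, led by Fhl2 (5857 ± 1229), the actin-regulated cofactor Mrtfa (3196 ± 425) and the ERK-regulated factors Elk4 (2484 ± 388) and Elk3 (2346 ± 535). Myocd, the cofactor of heart and smooth muscle, was not (191 ± 85.0). Of the kinases upstream 6 of 7 were above it, led by Map2k1 (6356 ± 1539), Mapkapk2 (3073 ± 1194), Map2k2 (2855 ± 856) and Mapk14 (2035 ± 379), and Rps6ka5 was not. Rxra, which encodes a partner receptor of Nr4a1 and Nr4a2, was above it (2062 ± 157). Rxrb (990 ± 354) was not, because replicate 2 alone was under the floor, and Rxrg (146 ± 16.7) was under it on every MOE430A array. No gene of these 4 lists was called in replicate 1 against the others, where 0.705% of all MOE430A probe sets tested were.

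Cytoskeletal targets of Srf were bright. Cnn1 and Zyx were called, where 0.217% of all MOE430A probe sets tested were called higher in replicate 1. All 12 were above the floor, led by the actin genes Actb (142634 ± 14747), Acta2 (96534 ± 33856) and Actg1 (90084 ± 10422) and by Tagln (33626 ± 16716). The smooth muscle gene Cnn1 had 7562 in replicate 1 against 2997 and 1381, a difference of 1.89 ± 0.41 with an adjusted p of 0.022 in limma. The focal adhesion gene Zyx was called by 1 probe set, with 1834 against 462 and 489 (1.91 ± 0.37, adjusted p = 0.00732 in limma), while its brighter probe set had 14104, 11396 and 9300.1 and was not called. Replicates 2 and 3 of the called Zyx probe set were under the floor, so it entered the test through replicate 1 alone, and with the floor in their place its signal was at least 2.59-fold higher there. Both calls were lost with no filter (adjusted p = 0.882 for Cnn1 and 0.73 for Zyx) and after quantile normalization (0.459 and 0.271). Replicate 1 was highest in 13 of the list's 18 MOE430A probe sets, with a median difference of 0.38. Over all MOE430A probe sets the share was 32.3% and the median -0.01. These probe sets too share genes and arrays, some were too dim for the test, and no test was made of the count.

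Of 31 other immediate early and early response genes, 23 were above the floor, led by Jund (11364 ± 1920), Ccn2 (11212 ± 7792), Ccn1 (11069 ± 5998) and Rhob (8939 ± 3029). Fos, which serum induces together with Egr1, had 1137, 1161 and 718, so it was not counted because replicate 3 alone was under the floor. Fosb (435 ± 79.2) and Atf3 (364 ± 177) were under it on every MOE430A array. Ccn2, a matricellular protein gene, was called higher in replicate 1, with 20189 against 7260 and 6188 (1.59 ± 0.37, adjusted p = 0.0339 in limma). On the same test 0.217% of all MOE430A probe sets tested were called higher in replicate 1. Ptgs2, the inducible prostaglandin synthase, was called by both of its probe sets. The brighter had 4429 against 935 and 1647 (1.82 ± 0.39, adjusted p = 0.0204 in limma). The other had 3560 against 363 and 569 (2.92 ± 0.38, adjusted p = 0.000175 in limma). Replicates 2 and 3 of the latter were under the floor, so it too entered the test through replicate 1 alone, and with the floor in their place its signal was at least 5.02-fold higher there. The calls of Ccn2 and Ptgs2 were lost with no filter (adjusted p from 0.73 to 0.806) and after quantile normalization (0.169 to 0.373). None of the 31 was called lower, but only 54 of all 11066 MOE430A probe sets tested were, so this count says little. Replicate 1 was highest in 23 of the list's 48 MOE430A probe sets, with a median difference of 0.19. Over all MOE430A probe sets the share was 32.3% and the median -0.01, and no test was made of this count either. Whether this list and the Egr, Nr4a and Ier group differ from each other was not tested.

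**Figure D4:**
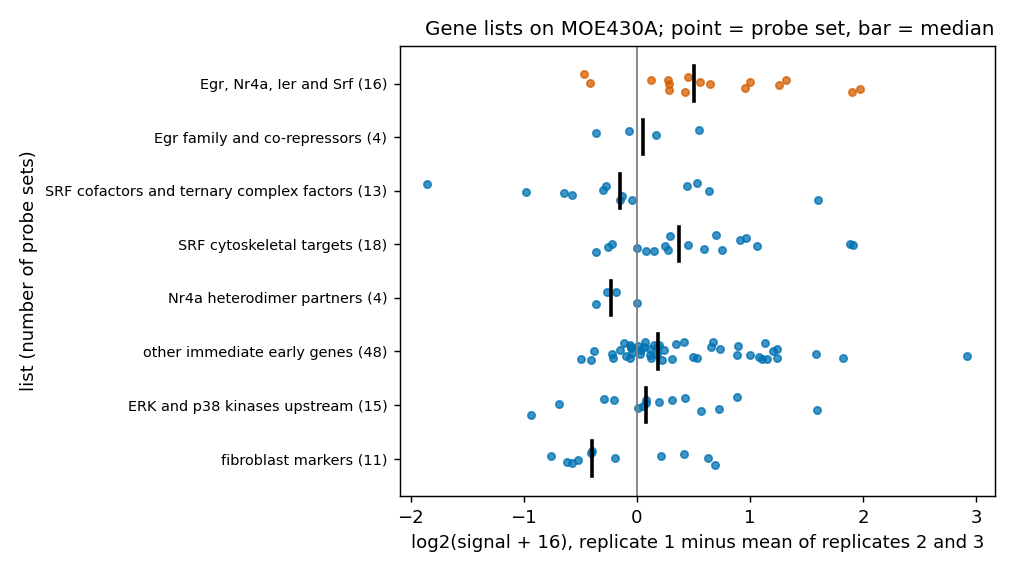
Difference in log2(signal + 16) between replicate 1 and the mean of replicates 2 and 3 on MOE430A, 1 point per probe set whether or not it entered the test, with the median of each list as a bar. The Egr, Nr4a, Ier and Srf probe sets have a median of 0.51, the cytoskeletal targets 0.38 and the other immediate early genes 0.19. The kinases upstream have 0.08 and the Egr family and co-repressors 0.05. The Srf cofactors have -0.15, the Nr4a partners -0.23 and the fibroblast markers -0.40.

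The cells were checked against markers. All 6 fibroblast markers (Vim, Col1a1, Col1a2, Pdgfrb, Thy1 and Fap) were above the floor, with a summed MOE430A signal of 407641, 428709 and 478088 in replicates 1, 2 and 3, lowest in replicate 1. The markers went both ways, since Vim (164029, 130581 and 153518) and Thy1 (38911, 35603 and 16217) were highest in replicate 1, and Col1a1 (80483, 107005 and 133057) and Col1a2 (119800, 147295 and 169211) were lowest there. Replicate 1 was highest in 4 and lowest in 7 of the 11 fibroblast probe sets on MOE430A. None of 4 embryonic stem cell markers was above it, 1 of 4 macrophage markers was (Csf1r), 1 of 4 endothelial markers (Kdr) and 1 of 3 epithelial markers (Epcam, through MOE430B). Their summed signals were 244, 520 and 317 for stem cells, 3371, 3140 and 3511 for macrophages, 1954, 2194 and 2395 for endothelium and 943, 871 and 741 for epithelium. The 3' to 5' signal ratio of Gapdh, a sign of RNA integrity, was 1.27, 1.16 and 0.85 on MOE430A, and that of beta-actin was 1.05, 1.17 and 1.09. The part of cell number, RNA concentration and RNA integrity in the values of replicate 1 was not tested.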

How the data were processed

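Biotin-labelled total RNA of 3 replicates was measured on both array types. The authors deposited MAS5 intensities, linear and 1 column per array, as the submitters' processing notes and the values show. The MAS5 version and its settings were not given in the sources used here. On every array the mean after trimming 2% at each end was about the same (1499.9 on MOE430A and 1499.8 on MOE430B), so each type had been scaled to 1 target. The types were kept apart. Precision is limited by the number of arrays.

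After 64 control probe sets of each type were left out, probe sets were named by GEO's platform annotation, updated by gene identifier against RefSeq. On 20380 MOE430A and 14661 MOE430B probe sets this gave 1 symbol, on 691 and 245 several, which are not named, and 1555 and 7605 are unnamed here. Replicate 1 was compared with replicates 2 and 3 by limma (3.58.1, R 4.3.3; lmFit and eBayes) on log2(signal + 16) over all probe sets whose mean log2 signal exceeded the mean log2 floor, with Benjamini-Hochberg adjustment over all of them and a threshold of 0.05. This scale understates changes of dim genes. The fit had 1 residual degree of freedom and a prior worth 25.6 (MOE430A) or 3.49 (MOE430B). Where a dim array lay under its floor, the floor took its place and the ratio is a lower bound.

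The genes, lists and tests were chosen with earlier results of these data known. All 10 genes are named; of each list, the 4 brightest above the floor, those called, and up to 3 not above it. A list gene is represented by its brightest MOE430A probe set, or by MOE430B where MOE430A names none. For the counts above the floor, a list or marker gene could pass by any of its probe sets on either array type. Patterns over 3 arrays of 1 condition were not matched to other genes. Alternatives covered the floor, the pseudocount, the filter, the normalization, the eBayes trend and each replicate left out.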

Additional observations from a re-analysis of the deposited data

How the results depend on the processing

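The number of these genes above the floor on MOE430A moved from 6 to 3 with the 75th percentile as the floor and to 10 with a fixed signal of 200; it stayed at 6 with the highest tryptophan control or the first probe set, and was 6 to 7 with a replicate left out (Egr3 joined without replicate 3). On MOE430B the count of 1 became 2 with the fixed signal and 0 with the first probe set, and was 1 with any replicate left out. Calls of limma over all MOE430A probe sets went from 78 to 164 with an eBayes trend, and to 0 with no filter (1297 at an unadjusted p below 0.05) and 0 after quantile normalization (754). Nr4a1 was called under an eBayes trend and pseudocounts of 1 and 64 (adjusted p from 8.2e-05 to 0.00999), and the count of called probe sets of the group was 0 without the filter and after quantile normalization, where its difference was still 1.90 and its adjusted p 0.73 and 0.284. The cause of these losses was not tested. Without replicates 2 and 3 in turn, the difference of Nr4a1 ranged from 1.78 to 2.02, with no test, because no residual degree of freedom remained. Over the 5 alternatives that keep all arrays, none of 55 differences of the 11 tested probe sets changed sign, and no other probe set of the group was called. The median SD of log2 signal over the group's probe sets, 0.39 on MOE430A and 1.15 on MOE430B, was 0.35 to 0.46 and 0.99 to 1.21 under other pseudocounts and quantile normalization. No paired analysis was possible because replicate 1 was set against replicates 2 and 3 of the same array type, so no replicate number stands on both sides, and the array types were not compared with each other.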
